A study of Mus musculus with 107 samples.

Results

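Renca is a mouse renal cell carcinoma line, and the tumors described here were 6 subcutaneous Renca tumors collected on day 8, of the 107 tumors from 12 syngeneic models in the series. Members were chosen by label alone: the 3 tumors given lenvatinib (LEN, tumors LEN 2, LEN 4 and LEN 5) and the 3 tumors given no treatment (NT 2, NT 3 and NT 5). All were grown from this one line in the right flank of female BALB/cAnNCrlCrlj mice implanted at 7 weeks of age, an immunocompetent host that supplies the vessels, fibroblasts and leukocytes of the tumor. Oral LEN, 10 mg/kg each day, was started when tumors had reached about 100 mm3 and went on for 7 days. A further 3 Renca tumors were collected untreated at that starting size (treatment-naive 1, 2 and 3) and serve as the starting point. All tumors come from 1 cell line, grown under the skin and not in the kidney, and the labels do not say whether each tumor came from a mouse of its own, so p-values measure the spread between these tumors.

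Lenvatinib is an oral kinase inhibitor whose main targets are the VEGF receptors, with the FGF receptors, PDGFRα, KIT and RET beside them. VEGF made by tumor cells acts on VEGFR2 of endothelial cells to drive sprouting, in which a leading tip cell is followed by stalk cells, a basement membrane is laid down and pericytes wrap the new tube. Cells that vessels no longer reach stabilize HIF, which switches on glucose transport, glycolysis and VEGF itself. Macrophages are the most common leukocyte of many mouse tumors, and their resident-like and monocyte-derived forms carry different genes.

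Expression was measured in TPM, the share of a gene among all transcripts of a tumor after correction for gene length, scaled to the same total in each tumor, so that levels of different genes can be set side by side but sequencing depth is unknown. Fold changes are differences of log2(TPM + 1) between the mean of the 3 LEN and the mean of the 3 NT tumors, with the standard error from limma, and a gene is said to have fallen or risen where its limma p, adjusted by Benjamini-Hochberg over all genes tested, was under 0.05. The most similar tumor of each of the 9 Renca tumors, by correlation of protein-coding genes, was a Renca tumor of the same group. The renal marker Pax8 was at 62.8, 49.6 and 59.7 TPM in the NT tumors and at 57.5, 57.0 and 57.6 TPM in the LEN tumors, the skin keratin Krt14 was at 0.08 TPM or less in each of the 6, and Klrb1c, which marks NK cells, was at 0.09 TPM or less. Protein-coding genes took 42.1% to 49.5% of the TPM in NT tumors and 43.4% to 46.4% in LEN tumors, and a single RNA of the signal recognition particle, Rn7s1, took 13% to 19.1%.

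The question was which genes of the tumor and of its host tissue differed after a week of LEN. Of 15832 genes that reached a mean of 1 TPM over the 6 tumors, 1132 were lower and 777 higher under LEN (7.15% and 4.91% of those tested). Lower genes thus made up 59.3% of the calls. This split depended on the scaling, and it was 45.1% when each tumor was scaled to its upper quartile and 51.0% when scaled to the protein-coding total. It also depended on single tumors: without NT 2 more genes rose than fell, 813 against 750, and without NT 3 the share of lower genes was 69.4%, with 1574 lower and 695 higher. The median fold change of all genes tested was -0.04. A log2 change of at least 1 was reached by 277 of the genes that fell and by 144 of those that rose. Protein-coding genes made up 94.9% of the genes that fell and 73.1% of those that rose. The counts of list members given in the following describe these tumors, and members under the TPM minimum are left out of them. Without NT 5, LEN 2, LEN 4 or LEN 5 481 to 626 genes fell and 368 to 444 rose.

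**Figure D1:**
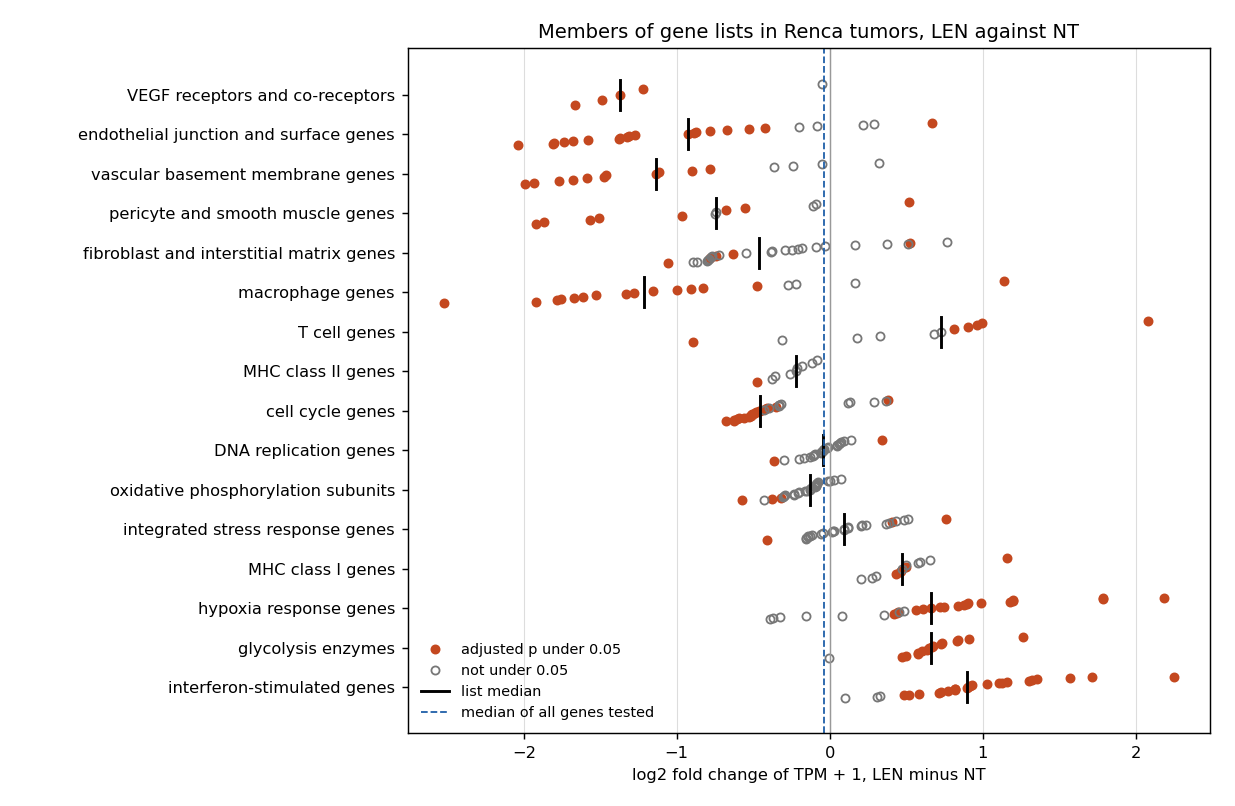
Log2 fold change of TPM + 1, LEN minus NT, for the tested members of 16 gene lists in the 6 Renca tumors of day 8; each point is a gene, filled where the adjusted p was under 0.05, a black bar is the median of the list and the dashed line the median of all genes tested (-0.04). Members of the vessel, basement membrane and macrophage lists lie mostly to the left, and those of the hypoxia, glycolysis and interferon lists mostly to the right.

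Receptors of the VEGF system fell together. Flt1, which encodes VEGFR1, was at 10.5, 10.8 and 12.1 TPM in the NT tumors and at 3.59, 2.42 and 2.55 TPM in the LEN tumors, a log2 fold change of -1.66 ± 0.14 (SE, adjusted p = 0.000719). Kdr, which encodes VEGFR2, the main signaling receptor of endothelial cells, went from 6.50, 6.43 and 7.92 TPM to 2.90, 1.86 and 2.5 TPM (log2 fold change -1.22 ± 0.15, adjusted p = 0.00291). The groups did not overlap for either gene. Flt4, the VEGFR3 gene of lymphatic and sprouting endothelium, and Nrp1, a VEGF co-receptor, fell by 1.37 ± 0.17 and 1.49 ± 0.09 on the log2 scale (adjusted p = 0.00367 and 0.000401). Thus 4 of the 5 listed VEGF receptors and co-receptors fell, against 7.15% of all genes, with a list median of -1.37, and 4 fell with any 1 tumor left out. The exception was Nrp2, at 87.4 to 96.7 TPM in NT and 83.5 to 92.7 TPM in LEN tumors, far above the level of the other 4 and with a log2 fold change of -0.05 ± 0.08 (adjusted p = 0.746). In bulk tumor RNA, fewer cells of a type and less RNA per cell cannot be told apart.

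None of the other listed lenvatinib targets passed the test, although 1 fell without LEN 2 and in the fit over all 72 tumors of day 8. Fgfr1 was the only one of them at a high level, 87.6 to 124 TPM in NT and 107 to 120.0 TPM in LEN tumors, and the groups overlapped (log2 fold change 0.13 ± 0.13, adjusted p = 0.571). Pdgfra and Kit, at 3.13 TPM or less in each of the 6 tumors, had log2 fold changes of -0.77 ± 0.26 and -0.57 ± 0.21 (adjusted p = 0.109 and 0.139). Fgfr2, Fgfr3, Fgfr4 and Ret were under the TPM minimum and were not tested.

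The microvessel density (MVD) gene score of the study averages 6 endothelial genes, and its members did not respond equally. The score itself was 3.95, 4.33 and 4.09 in the treatment-naive tumors, 3.34, 3.34 and 3.56 in the NT tumors and 2.49, 2.23 and 2.38 in the LEN tumors. Cdh5, the VE-cadherin of endothelial junctions, fell the furthest of them, from 15, 17.6 and 20.4 TPM to 4.19, 3.09 and 3.88 TPM (log2 fold change -1.98 ± 0.14, adjusted p = 0.000447). Sparcl1, a matricellular gene of vessels, fell by 1.65 ± 0.15 on the log2 scale (adjusted p = 0.00104). Eng, a TGF-β co-receptor of endothelium, was at 34.1 to 46.3 TPM in NT and 27.6 to 30.4 TPM in LEN tumors, and Pcdh12, an endothelial protocadherin, at 4.87 to 5.96 and 3.43 to 3.95 TPM. Both passed the test narrowly (log2 fold change -0.46 ± 0.12 and -0.45 ± 0.11, adjusted p = 0.0488 and 0.0408). Tek, the Tie2 receptor, was at 0.65 to 1.13 TPM in NT and 0.25 to 0.38 TPM in LEN tumors and was not tested. All 5 tested members fell, but only 3 did without NT 5, without LEN 2, without LEN 4 or without LEN 5.

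**Figure D2:**
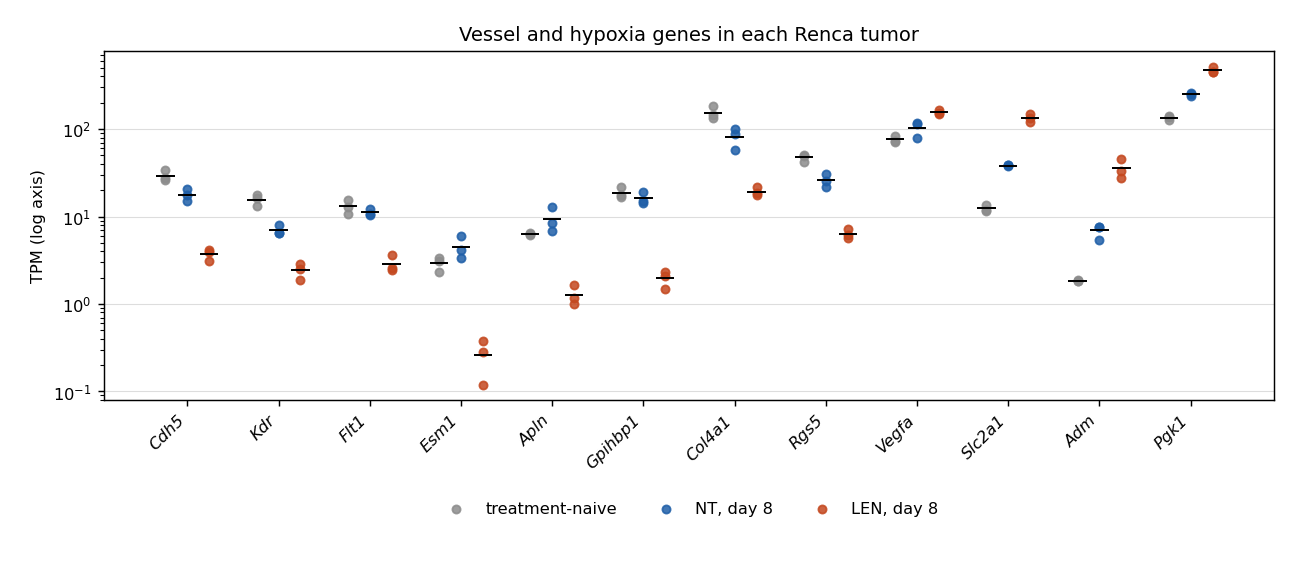
TPM on a log axis of 12 vessel and hypoxia genes in the 3 treatment-naive, 3 NT and 3 LEN Renca tumors; each point is a tumor and each black bar a group mean. In the 8 genes from Cdh5 to Rgs5 every LEN tumor lies below every NT tumor, and in the 4 genes from Vegfa to Pgk1 every LEN tumor lies above.

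On the ligand side, Vegfa and Vegfd rose. Vegfa was at 117, 79.7 and 113 TPM in NT and at 152, 166 and 149 TPM in LEN tumors (log2 fold change 0.61 ± 0.15, adjusted p = 0.0416). Vegfd, which encodes a ligand of VEGFR2 and VEGFR3, rose by 0.86 ± 0.15 (adjusted p = 0.0125), while Vegfb and the placental growth factor gene Pgf did not pass (0.06 ± 0.09 and 0.47 ± 0.15, adjusted p = 0.704 and 0.0982). The count of 2 risen ligands was 1 without NT 5, LEN 2 or LEN 5 and 0 without LEN 4. In the angiopoietin and Tie system, Tie1, an orphan receptor of endothelium, fell by 1.44 ± 0.15, Ptprb, an endothelial phosphatase that acts on Tie2, by 0.75 ± 0.12, and Angpt2, the Tie2 ligand released by activated endothelium, by 0.57 ± 0.11 on the log2 scale (adjusted p = 0.00177, 0.00938 and 0.0205). The call of Angpt2 was lost without NT 5, LEN 2, LEN 4 or LEN 5.

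Several sprouting genes fell steeply. Esm1, a secreted proteoglycan of tip cells, was at 3.36, 4.10 and 6.00 TPM in NT tumors and at 0.12, 0.28 and 0.38 TPM in LEN tumors (log2 fold change -2.10 ± 0.21, adjusted p = 0.00139), a ratio of means of 17.3 that the pseudocount compresses on the log2 scale. Apln, the apelin peptide of tip cells, went from 6.85, 8.35 and 12.9 TPM to 1.18, 0.99 and 1.67 TPM (-2.15 ± 0.22, adjusted p = 0.00164). Dll4, the Notch ligand of tip cells, fell by 1.5 ± 0.17, and Igfbp3, a secreted binder of insulin-like growth factors, by 2.51 ± 0.14 on the log2 scale (adjusted p = 0.00205 and 0.000314). Of the 20 tested members of the Notch and tip cell list 10 fell and 1 rose, with a median of -0.51. Notch1 itself overlapped between the groups (-0.52 ± 0.20, adjusted p = 0.146). The 1 member that rose was Adm, which is also a hypoxia gene.

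Most genes of endothelial junctions and the endothelial surface fell. Of 23 tested members 18 fell and 1 rose, with a median log2 fold change of -0.92. Among them were Mcam, a cell adhesion molecule of vessels (-2.04 ± 0.21, adjusted p = 0.00162), Cldn5, the claudin of endothelial tight junctions (-1.81 ± 0.16, adjusted p = 0.000866), and Cd34, a surface sialomucin (-1.80 ± 0.15, adjusted p = 0.000766). Pecam1, the CD31 antigen used to count vessels in sections, was at 12.8, 15.9 and 18.3 TPM in NT and at 6.14, 5.70 and 5.66 TPM in LEN tumors (-1.27 ± 0.13, adjusted p = 0.00155). Vwf, the von Willebrand factor gene, went the other way, at 1.18 to 1.72 TPM in NT and 2.60 to 3.29 TPM in LEN tumors (0.67 ± 0.15, adjusted p = 0.0284), and this call was lost without NT 5, LEN 2, LEN 4 or LEN 5.

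Endothelial transcription factors split by gene. Of 14 tested 7 fell, with Lyl1, Epas1 and Sox18 by 1.83 ± 0.15, 1.45 ± 0.12 and 1.39 ± 0.13 on the log2 scale (adjusted p = 0.000773, 0.000773 and 0.00124), and Klf4, which is expressed well beyond endothelium, rose by 0.72 ± 0.13 (adjusted p = 0.0125), though not without NT 5. The count of 1 risen factor was 3 without NT 2 and under upper-quartile or protein-coding scaling. Which cells carried the falls of these factors was not tested, and macrophage genes fell in the same tumors, with a list median of -1.22. Erg was under the TPM minimum. Genes of fatty acid uptake did not move as one group: Gpihbp1, the capillary anchor of lipoprotein lipase, went from 14.1, 15.2 and 19.1 TPM to 2.11, 2.34 and 1.5 TPM (-2.52 ± 0.16, adjusted p = 0.000401), whereas Lpl, the lipase it holds, Fabp5, a fatty acid binding protein, and Cav1, the coat protein of caveolae, rose by 1.11 ± 0.18, 1.06 ± 0.15 and 0.68 ± 0.08 (adjusted p = 0.0100, 0.00577 and 0.00282). Cd36 overlapped between the groups (0.16 ± 0.14, adjusted p = 0.517). Among adhesion molecules that hold leukocytes to vessels, Vcam1 fell by 0.86 ± 0.11 on the log2 scale (adjusted p = 0.00388) and Icam1 did not pass (-0.15 ± 0.10, adjusted p = 0.403).

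Globin transcripts fell further than any listed vessel gene. Hbb-bs, a beta globin gene, was at 24.8, 37.0 and 31.2 TPM in NT tumors and at 0.71, 2.44 and 0.74 TPM in LEN tumors, a ratio of means of 23.9 (log2 fold change -3.86 ± 0.29, adjusted p = 0.000526). The alpha globin genes Hba-a1 and Hba-a2, whose near-identical copies share reads, fell by 3.55 ± 0.37 and 3.82 ± 0.29 on the log2 scale (adjusted p = 0.00165 and 0.000527). The summed TPM of the 6 listed red blood cell genes was 78.2 to 129 in NT and 7.85 to 12.5 in LEN tumors. Alas2, the erythroid enzyme of heme synthesis, did not share this (-0.16 ± 0.22, adjusted p = 0.696). How much blood each tumor held at collection was not measured, and its part in the vessel results was not tested.

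The wall around the endothelium was lower as well. Of the 15 vascular basement membrane genes, all tested, 11 fell and 0 rose at the adjusted threshold, with a median of -1.14, and this count was between 11 and 13 with any 1 tumor left out. Col4a1, a chain of the collagen IV network, went from 100.2, 56.9 and 88.3 TPM to 18.5, 17.5 and 21.8 TPM (-1.99 ± 0.21, adjusted p = 0.00158). Its partner Col4a2, the laminin chain Lama4 of vessels and the linker nidogen Nid1 fell by 1.77 ± 0.25, 1.93 ± 0.16 and 1.68 ± 0.20 on the log2 scale (adjusted p = 0.00525, 0.000813 and 0.00271). Of 12 tested pericyte and smooth muscle genes 7 fell and 1 rose, and 4 fell without LEN 5. Rgs5, a G protein regulator of pericytes, was at 21.5, 25.7 and 30.4 TPM in NT and at 7.16, 6.11 and 5.72 TPM in LEN tumors (-1.87 ± 0.14, adjusted p = 0.000541). Abcc9 and Kcnj8, which form a potassium channel of pericytes, fell by 1.92 ± 0.13 and 1.57 ± 0.15 and the PDGF receptor gene Pdgfrb by 1.51 ± 0.11 (adjusted p = 0.000402, 0.00125 and 0.000506). Cspg4, the NG2 proteoglycan also carried by many tumor cells, rose by 0.52 ± 0.10 (adjusted p = 0.0148), though not without LEN 2, LEN 4 or LEN 5.

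Genes of the hypoxia response rose. Of 27 tested 19 rose, against 4.91% of all genes, and 0 fell at the adjusted threshold, with a median of 0.66 against -0.04 for all genes, and 14 to 20 rose with any 1 tumor left out. Slc2a1, the glucose transporter GLUT1, was at 38.5, 37.5 and 38.3 TPM in the NT tumors and at 121, 150.4 and 132 TPM in the LEN tumors (log2 fold change 1.79 ± 0.09, adjusted p = 0.00031). Adm, the vasodilator peptide adrenomedullin, went from 7.64, 5.46 and 7.67 TPM to 27.9, 45.1 and 33.3 TPM (2.19 ± 0.19, adjusted p = 0.000976). Neither gene's groups came near to overlap.

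Ankrd37, a small HIF target, rose by 1.79 ± 0.12 (adjusted p = 0.000402), and Egln3, a prolyl hydroxylase that marks HIF for decay and is itself induced by it, from 0.32 to 0.64 TPM in NT to 1.99 to 2.75 TPM in LEN tumors (1.2 ± 0.17, adjusted p = 0.00624). Bnip3, a mitophagy receptor, rose by 1.2 ± 0.13 (adjusted p = 0.00195). The list's first member, the carbonic anhydrase gene Car9, often used to mark hypoxia, did not share this direction, at 1.24 to 1.92 TPM in NT and 0.86 to 1.21 TPM in LEN tumors (-0.33 ± 0.17, adjusted p = 0.275). Among the HIF subunits and sensors themselves, Hif1a was at 119 to 134 TPM and 137 to 152 TPM (0.20 ± 0.08, adjusted p = 0.165), while Epas1, the endothelium-rich HIF2α gene described with the vessel factors, fell. Vhl, which targets HIF for destruction, rose by 0.48 ± 0.12 (adjusted p = 0.0417), a call that was lost without NT 2, NT 5, LEN 2, LEN 4 or LEN 5. In all, 3 of the 8 tested genes of that list rose and 1 fell.

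Glycolytic enzymes rose along the pathway. Of the 16 listed enzymes 15 rose and 0 fell at the adjusted threshold, with a median of 0.66, and 9 rose without LEN 5. At the entry, the hexokinases Hk1 and Hk2 rose by 0.58 ± 0.10 and 0.58 ± 0.11 (adjusted p = 0.0112 and 0.0187). In the lower part of the pathway, Pgk1, phosphoglycerate kinase, was at 249.98, 239 and 260.0 TPM in NT and at 453, 507 and 450.3 TPM in LEN tumors (0.91 ± 0.08, adjusted p = 0.000956). Eno2, an enolase, rose by 1.26 ± 0.12 and Tpi1, triosephosphate isomerase, by 0.83 ± 0.10 (adjusted p = 0.00129 and 0.00249). The muscle-type phosphofructokinase Pfkm was the exception, with overlapping groups at 22.8 to 31.4 TPM in NT and 25.8 to 28.8 TPM in LEN tumors (adjusted p = 0.989), while the liver type Pfkl rose by 0.84 ± 0.18 (adjusted p = 0.0258). The calls of Hk2 and Pfkl were lost without NT 5, LEN 4 or LEN 5, that of Hk2 also without LEN 2, and that of Hk1 without LEN 5.

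The region in front of the starts of these genes was read from the RefSeq promoter table (GRCm38.p6, 250 bases before to 50 after the start of 27025 genes). The motif searched was the core of the hypoxia response element, ACGTG, on both strands. It was present for 16 of the 21 tested hypoxia genes with a promoter in the table (76.2%) and for 10 of the 16 glycolysis enzymes (62.5%), against 21.8% of all genes with a promoter and 29.2% of the 9845 of them tested here. Among members that rose, the motif was present for 13 of 16 hypoxia genes and 9 of 15 enzymes with a promoter. Adm, Eno2, Tpi1 and Pfkl rose without a match, and Pfkm, which did not rise, had up to 3 in 1 promoter. Slc2a1 and Pgk1 are shown as a transporter and an enzyme that rose, with the 250 bases before the start on the gene's own strand and matches in capitals. The Slc2a1 sequence lies at chr4:119108495-119108744 on the plus strand, with its match starting 36 bases before the start, and that of Pgk1 at chrX:106186850-106187099 on the plus strand, with matches 150 and 131 bases before it. Such a match is a description of the sequence and not evidence of binding.
Slc2a1: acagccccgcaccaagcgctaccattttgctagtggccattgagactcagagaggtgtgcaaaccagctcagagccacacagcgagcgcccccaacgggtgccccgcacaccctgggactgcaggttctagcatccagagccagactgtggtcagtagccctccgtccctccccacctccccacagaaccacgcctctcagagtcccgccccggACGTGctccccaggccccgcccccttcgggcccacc
Pgk1: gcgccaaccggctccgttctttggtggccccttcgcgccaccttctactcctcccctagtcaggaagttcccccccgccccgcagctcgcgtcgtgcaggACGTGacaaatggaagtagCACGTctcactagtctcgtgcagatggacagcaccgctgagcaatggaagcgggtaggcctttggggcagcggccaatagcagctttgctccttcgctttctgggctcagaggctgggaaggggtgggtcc

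Counts for stress and supply pathways outside hypoxia are read against all genes tested, of which 7.15% fell and 4.91% rose. Of 26 tested genes of the integrated stress response, the program that ATF4 runs under amino acid or protein folding stress, 2 rose and 1 fell. The mitochondrial folate enzyme Aldh1l2 rose from 66.6 to 83.5 TPM to 121 to 129 TPM (0.76 ± 0.10, adjusted p = 0.00376), the proline enzyme Pycr1 fell by 0.41 ± 0.10 on the log2 scale (adjusted p = 0.0347), and Atf4 and Ddit3 overlapped between the groups (0.21 ± 0.11 and -0.14 ± 0.09, adjusted p = 0.275 and 0.385). The count of risen members was 7 under upper-quartile scaling, 6 when scaled to the protein-coding total, 5 without NT 2 and 1 without any other of the 6 tumors. The fall of Pycr1 was lost without any tumor other than NT 3, with no TPM minimum and in the fit over all 72 tumors of day 8. The ATF4 element core TGATGNAA, on both strands, was present for 39.1% of the 23 members with a promoter and for 4.51% of all genes. In cholesterol synthesis, 1 of 22 genes rose and 1 fell, and the one that rose was Stard4, a sterol carrier (0.50 ± 0.09, adjusted p = 0.016), a call that was lost without NT 5, LEN 2, LEN 4 or LEN 5. Of 27 oxidative phosphorylation subunits 3 fell and 0 rose at the adjusted threshold. Among them were Ndufa4 and Atp5a1 (-0.58 ± 0.12 and -0.37 ± 0.09, adjusted p = 0.0222 and 0.0455), and 0 subunits fell without NT 2, NT 5, LEN 2 or LEN 5, 1 without LEN 4, 5 without NT 3 or under upper-quartile scaling and 6 under protein-coding scaling.

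Genes of mitosis were lower, by small steps. Of 29 tested cell cycle genes 18 fell and 1 rose, with a median of -0.45. Mki67, the proliferation marker Ki-67, was at 74.9, 61.4 and 69.4 TPM in NT and at 48.5, 44.5 and 49.8 TPM in LEN tumors (-0.51 ± 0.10, adjusted p = 0.0158). Ccnb2, a mitotic cyclin, went from 37.7, 32.1 and 35.1 TPM to 22.1, 23 and 19.4 TPM (-0.68 ± 0.10, adjusted p = 0.00644), and Plk1, a mitotic kinase, fell by 0.63 ± 0.12 on the log2 scale (adjusted p = 0.0163). The groups did not overlap for these 3 genes. The number of members that fell was 4 without NT 5, 8 without LEN 2 or LEN 4, 7 without LEN 5 and 6 in the fit over all 72 tumors of day 8. The calls of Mki67 and Plk1 were lost without NT 5, LEN 4 or LEN 5, and that of Mki67 also without LEN 2.

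The G1 cyclin Ccnd1 fell by 0.62 ± 0.13 on the log2 scale (adjusted p = 0.0234), and the S phase regulator E2f1, the 1 member that rose, did so by 0.38 ± 0.09 (adjusted p = 0.0369), though not without NT 3, NT 5, LEN 2, LEN 4 or LEN 5. Of 23 tested DNA replication genes 1 fell, the thymidine kinase Tk1 (-0.36 ± 0.09, adjusted p = 0.0365), and 1 rose, the polymerase clamp Pcna (0.34 ± 0.08, adjusted p = 0.0376), around a median of -0.04, and the rise of Pcna was lost without any tumor other than NT 2 and the fall of Tk1 without any other than NT 3. The call of Ccnd1 was lost without NT 2, NT 5 or LEN 2. Cdkn1a, the cell cycle inhibitor p21, was at 46.6, 43.0 and 42.4 TPM in NT and at 88.1, 103 and 93.1 TPM in LEN tumors (1.09 ± 0.09, adjusted p = 0.000609). Mdm2, which encodes the ubiquitin ligase of p53 and is also its target, rose by 0.49 ± 0.08, and Sesn1, a p53-induced stress gene, fell by 1.19 ± 0.12 on the log2 scale (adjusted p = 0.00876 and 0.00163), so that of 16 tested members of that list 3 rose and 1 fell.

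Of the 22 cell cycle genes with a promoter in the RefSeq table, 16 held CCAAT (72.7%, against 41.1% of all genes) and 13 held TTTGAA, the core of the cell cycle homology region (59.1%, against 20.2%), each on both strands. Ccnb2, which fell the furthest of the list, is shown over chr9:70421555-70421804 on the minus strand, with 3 CCAAT matches in capitals that start 87, 54 and 21 bases before the start.
Ccnb2: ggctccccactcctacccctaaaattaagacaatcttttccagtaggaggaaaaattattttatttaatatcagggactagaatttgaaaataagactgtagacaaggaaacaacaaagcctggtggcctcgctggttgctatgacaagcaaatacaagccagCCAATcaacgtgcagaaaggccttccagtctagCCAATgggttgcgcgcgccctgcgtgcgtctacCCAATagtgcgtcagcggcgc

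Kidney lineage genes were not shown to change. Of 5 tested kidney tubule genes 0 passed the test in limma at the adjusted threshold, with Pax2 at 0.11 ± 0.12 and Pax8 at 0.01 ± 0.10 (adjusted p = 0.625 and 0.973). Among 14 tested epithelial and mesenchymal markers 0 fell and 3 rose: the intermediate filament Vim, from 817 to 911 TPM in NT to 1345 to 1464 TPM in LEN tumors (0.66 ± 0.08, adjusted p = 0.00315), the keratin Krt19 (1.12 ± 0.19, adjusted p = 0.0112) and the claudin Cldn3 (0.27 ± 0.07, adjusted p = 0.0479). The call of Cldn3 was lost without any 1 of the 6 tumors, and 1 marker rose without LEN 2, LEN 4 or LEN 5. The adhesion genes Epcam and Cdh1 did not pass (-0.38 ± 0.14 and -0.24 ± 0.13, adjusted p = 0.125 and 0.281).

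Genes of fibroblasts and interstitial matrix had a list median of -0.46, against -0.04 for all genes. Col1a1, the main fibrillar collagen, was at 158, 206 and 333 TPM in NT tumors and at 162, 73.5 and 140.0 TPM in LEN tumors, and the groups overlapped (-0.90 ± 0.35, adjusted p = 0.158). Of 26 tested fibroblast and matrix genes 4 fell, Fbn1, Col6a3, Thy1 and Col12a1 (-1.06 ± 0.25, -0.78 ± 0.19, -0.74 ± 0.18 and -0.63 ± 0.15, adjusted p = 0.0385, 0.0408, 0.0387 and 0.0348), and 1 rose, Fbln2 (0.53 ± 0.09, adjusted p = 0.0103). Over all genes tested 7.15% fell and 4.91% rose. The number of list members that fell was 0 under upper-quartile or protein-coding scaling and without NT 5, LEN 4 or LEN 5, 1 without NT 2 or NT 3, and 2 without LEN 2. Among matrix-degrading enzymes, the collagenase Mmp13 fell from 10.1 to 12.6 TPM in NT to 3.36 to 4.70 TPM in LEN tumors (-1.35 ± 0.13, adjusted p = 0.00142), the membrane-bound Mmp14 fell by 0.73 ± 0.13 on the log2 scale (adjusted p = 0.0125), and the macrophage elastase Mmp12 and the aggrecanase Adamts1 rose by 0.96 ± 0.18 and 0.80 ± 0.11 (adjusted p = 0.0158 and 0.00549). The calls of Mmp14 and Mmp12 were lost without NT 5. Skeletal muscle genes, which mark tissue around a flank tumor, summed to 29.5, 15.1 and 136 TPM in NT and to 99.4, 61.1 and 77.5 TPM in LEN tumors. NT 5 stood above the other NT tumors, 0 of the 11 members passed the test, and 7 rose without NT 5.

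Clotting genes moved in both directions. Plaur, the urokinase receptor, rose by 1.00 ± 0.10 (adjusted p = 0.00132). Serpine2, a serine protease inhibitor, fell by 1.66 ± 0.09 and the factor XIII chain F13a1, which is made by macrophages, by 1.66 ± 0.13 on the log2 scale (adjusted p = 0.00031 and 0.000541). The tissue factor gene F3 and the factor VII gene F7 did not pass (0.50 ± 0.15 and 0.39 ± 0.13, adjusted p = 0.0769 and 0.111). In all, 5 of 14 tested members rose and 3 fell, with 2 rises without NT 5 or LEN 5, 3 without LEN 2 or LEN 4, 2 in the fit over all 72 tumors and 8 under upper-quartile scaling.

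Most macrophage genes fell. Of 18 tested 14 fell and 1 rose, with a median of -1.22, and 14 or 15 fell with any 1 tumor left out. Mrc1, the mannose receptor CD206, was at 77.4, 72.1 and 75.4 TPM in NT and at 23.2, 21.4 and 19.9 TPM in LEN tumors (-1.76 ± 0.08, adjusted p = 0.000303). Cx3cr1, the fractalkine receptor, went from 38.5, 25.5 and 37.2 TPM to 4.85, 3.96 and 6.29 TPM (-2.52 ± 0.20, adjusted p = 0.000581). The growth factor receptor Csf1r, the F4/80 antigen Adgre1 and the complement gene C1qc fell by 1.53 ± 0.11, 1.33 ± 0.10 and 1.78 ± 0.13 on the log2 scale (adjusted p = 0.000522, 0.000526 and 0.000527), and the lipid carrier Apoe by 1.92 ± 0.27 (adjusted p = 0.00539).

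Not every member of the macrophage list was lower. Cd68, a lysosomal protein of phagocytes, was at 174.5, 138 and 154 TPM in NT and at 175, 183 and 164 TPM in LEN tumors (0.17 ± 0.10, adjusted p = 0.344), and it passed as a rise of 0.24 under upper-quartile and of 0.21 under protein-coding scaling. Spp1, osteopontin, was at 795 to 958 and 719 to 753 TPM (-0.27 ± 0.09, adjusted p = 0.101). Ly6c2, the surface marker of inflammatory monocytes, was the strongest riser among myeloid list members, at 2.66, 2.47 and 2.03 TPM in NT and 14.6, 13.3 and 14.2 TPM in LEN tumors (2.15 ± 0.10, adjusted p = 0.00031). Ccr2, the chemokine receptor of the same cells, fell by 0.55 ± 0.10 on the log2 scale (adjusted p = 0.0147). Of the 9 tested monocyte genes 2 fell and 1 rose, and 1 fell without NT 5, LEN 4 or LEN 5.

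Neutrophil calprotectin genes S100a8 and S100a9 rose by 1.30 ± 0.15 and 1.84 ± 0.20 and the chemokine Cxcl2 by 0.72 ± 0.16 (adjusted p = 0.00262, 0.00191 and 0.0322), while the receptor Csf3r overlapped between the groups (0.07 ± 0.12, adjusted p = 0.736). Of 8 tested members 3 rose and 0 fell at the adjusted threshold, and the call of Cxcl2 was lost without any tumor other than NT 5. In the dendritic cell list, Ccr7, the receptor of migrating cells, and the chemokines Ccl22 and Ccl17 rose by 1.07 ± 0.13, 1.05 ± 0.13 and 0.76 ± 0.11 (adjusted p = 0.00293, 0.0034 and 0.0066), and the actin bundler Fscn1, which tumor cells also express, fell by 0.72 ± 0.09 on the log2 scale (adjusted p = 0.00271), so that of 8 tested members 3 rose and 1 fell.

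T cell genes were low in these tumors, and the few that could be tested mostly pointed up. Cd3e, a chain of the T cell receptor complex, was at 0.64, 0.69 and 0.55 TPM in NT and at 2.21, 1.82 and 2.79 TPM in LEN tumors (1.00 ± 0.17, adjusted p = 0.0107). The other receptor genes Cd3d and Trbc1 rose by 0.81 ± 0.18 and 0.96 ± 0.19 (adjusted p = 0.0328 and 0.0214). Cd8a was at 0.74 TPM or less in each of the 6 tumors and was not tested, as were 16 of the 27 listed genes. Cd4, which mouse macrophages can also carry, fell by 0.89 ± 0.16 on the log2 scale (adjusted p = 0.0133). Of 11 tested members 5 rose and 1 fell, with 3 rising without LEN 4, 2 without LEN 5 and 2 in the fit over all 72 tumors. With no TPM minimum, where more of the listed genes enter, 12 rose, and at a mean of at least 5 TPM 1 rose. The rise of Cd3e was lost without LEN 5, that of Cd3d without NT 2, NT 5, LEN 2 or LEN 5, that of Trbc1 without NT 5 and the fall of Cd4 without LEN 4.

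The costimulatory receptor Tnfrsf9, 4-1BB, stood apart in level. It was at 29.8, 23.7 and 22.9 TPM in NT and at 94.5, 126 and 112 TPM in LEN tumors (2.08 ± 0.14, adjusted p = 0.000402), far above the level of Cd3e in each tumor. The chemokine Ccl5 rose by 1.06 ± 0.12 (adjusted p = 0.00223), the granzymes Gzma and Gzmb stayed under the TPM minimum, and the immunoglobulin heavy chain gene Ighm fell by 1.53 ± 0.20 on the log2 scale (adjusted p = 0.00416). Of the 12 tested mouse counterparts of the study's Tcell_inf_GEP signature 3 rose and 2 fell, with a median of 0.06, and 1 fell without any tumor other than NT 3.

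Interferon-stimulated genes rose nearly without exception. Of the 26 listed, all tested, 23 rose and 0 fell at the adjusted threshold, with a median of 0.90 against -0.04 for all genes. With any 1 tumor left out 17 to 22 rose, and 12 rose in the fit over all 72 tumors, where the spread is shared with the other models. Rsad2, the antiviral enzyme viperin, was at 3.21, 1.43 and 3.15 TPM in NT and at 12.9, 16 and 18.4 TPM in LEN tumors (2.25 ± 0.23, adjusted p = 0.00165). Isg15, a ubiquitin-like modifier, went from 44.7, 29.8 and 43.2 TPM to 78.2, 96.6 and 88.9 TPM (1.16 ± 0.16, adjusted p = 0.00571). Mx2, Ifit1 and the regulator Irf7 rose by 1.71 ± 0.19, 1.57 ± 0.17 and 1.35 ± 0.15 (adjusted p = 0.00228, 0.00192 and 0.00208), and the 3 members that did not pass were Ifit2, Irf9 and Trim30a.

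The motif GAAANNGAA, the core of the interferon-stimulated response element, was present on either strand for 12 of the 19 members with a RefSeq promoter (63.2%), against 9.76% of all genes with a promoter and 8.84% of those tested here. Shown for 3 members that rose are the 250 bases before the start with matches in capitals: Rsad2 at chr12:26456453-26456702 on the minus strand, Ifit1 at chr19:34640639-34640888 on the plus strand and Isg15 at chr4:156200819-156201068 on the minus strand. The match of Rsad2 starts 119 bases before the start, and those of Ifit1 and Isg15, of which some overlap each other, start 109, 103 and 84 and 78, 72 and 66 bases before it. Capitals that read as the reverse complement are matches on the other strand.
Rsad2: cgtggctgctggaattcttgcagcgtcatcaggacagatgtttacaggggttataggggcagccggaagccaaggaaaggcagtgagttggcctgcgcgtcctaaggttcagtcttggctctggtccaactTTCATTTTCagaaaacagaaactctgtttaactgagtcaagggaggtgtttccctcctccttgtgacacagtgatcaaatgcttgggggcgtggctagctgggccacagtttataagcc
Ifit1: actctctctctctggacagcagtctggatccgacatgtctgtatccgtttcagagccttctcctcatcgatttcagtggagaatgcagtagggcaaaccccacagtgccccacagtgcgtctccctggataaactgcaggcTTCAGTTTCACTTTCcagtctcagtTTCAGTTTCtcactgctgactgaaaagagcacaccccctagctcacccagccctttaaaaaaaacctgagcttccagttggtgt
Isg15: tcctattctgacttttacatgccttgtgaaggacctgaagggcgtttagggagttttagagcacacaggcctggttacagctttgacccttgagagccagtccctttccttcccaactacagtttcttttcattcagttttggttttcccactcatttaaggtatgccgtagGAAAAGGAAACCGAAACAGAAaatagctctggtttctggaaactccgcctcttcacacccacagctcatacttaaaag

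Calls among genes tied to interferon gamma depended on single tumors and on the fit. Of 14 tested 6 rose and 1 fell, among them the GTPases Iigp1 and Igtp (1.27 ± 0.25 and 1.01 ± 0.16, adjusted p = 0.02 and 0.00879), but 3 rose without NT 5 or LEN 5, 2 without LEN 4 and 0 in the fit over all 72 tumors. The call of Iigp1 was lost without NT 2 or LEN 4, and 0 members fell under either other scaling or without any tumor other than NT 2. Ifng itself was at 0.22 TPM or less in each of the 6 tumors, and the chemokine genes Cxcl9 and Cxcl10 overlapped between the groups (0.67 ± 0.33 and 0.88 ± 0.31, adjusted p = 0.25 and 0.117). Cd274, which encodes PD-L1, was at 10.8 to 14.8 TPM in NT and 11.5 to 13.7 TPM in LEN tumors (0.01 ± 0.13, adjusted p = 0.978).

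In MHC class I presentation 5 of 13 members rose: the nonclassical H2-T23, by 1.16 ± 0.11 (adjusted p = 0.0014), and Tap1, Tap2, Tapbp and Psmb8, which cut and load peptides, by 0.43 to 0.50 (adjusted p = 0.016 to 0.0488). The classical H2-K1 and H2-D1 lay higher in each LEN than in each NT tumor but did not pass (0.66 ± 0.18 and 0.58 ± 0.17, adjusted p = 0.0589 and 0.0692). The class I count was 2 with no TPM minimum, 1 in the fit over all 72 tumors, 3 without NT 2, NT 3 or LEN 2, 1 without NT 5, LEN 4 or LEN 5, and 9 under either other scaling. For class II, 1 of 9 tested members fell, the master regulator Ciita (-0.48 ± 0.11, adjusted p = 0.0343), and that call was lost under both scalings, without any tumor other than NT 2 and in the fit over all 72 tumors, although 2 other members fell without LEN 5, while Cd74 did not pass (-0.36 ± 0.11, adjusted p = 0.0867).

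**Figure D3:**
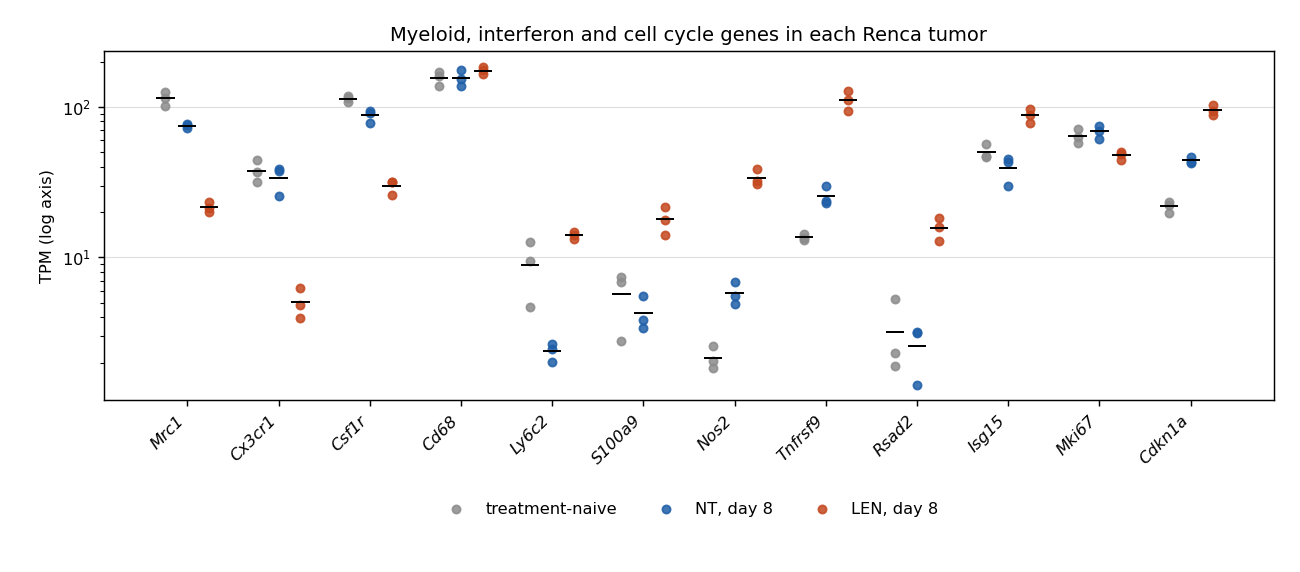
TPM on a log axis of 12 myeloid, lymphoid, interferon and cell cycle genes in the 3 treatment-naive, 3 NT and 3 LEN Renca tumors; each point is a tumor and each black bar a group mean. LEN tumors lie below all NT tumors for Mrc1, Cx3cr1, Csf1r and Mki67 and above them for Ly6c2, S100a9, Nos2, Tnfrsf9, Rsad2, Isg15 and Cdkn1a, while the groups overlap for Cd68.

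Over all protein-coding genes with a mean of at least 5 TPM in the higher group, the 3 largest falls were those of the globin genes given with the vessels. Next came Fcrls, an Fc receptor-like gene of mouse macrophages and microglia, at 63.9, 70.7 and 73.0 TPM in NT and 8.84, 8.11 and 7.91 TPM in LEN tumors (-2.92 ± 0.09, adjusted p = 5.52e-05). Gpihbp1, Cx3cr1, Igfbp3 and Apln, described with their lists, were also among the 15 largest. Others were the imprinted gene Mest with -2.55 ± 0.29, the eosinophil-type ribonuclease Ear2 with -2.39 ± 0.23, the lipid transporter Abca9 with -2.38 ± 0.13, the myeloid lectin Cd33 with -2.26 ± 0.24, the endothelin receptor Ednrb with -2.22 ± 0.14 and the purine receptor P2ry12 with -2.18 ± 0.17 (adjusted p = 0.00231, 0.00132, 0.00031, 0.00183, 0.000401 and 0.000558). Ear2 belongs to a family of close paralogs, so that its reads may be shared.

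The largest rise belonged to 2610528A11Rik, a small secreted peptide gene, at 12.4, 15.4 and 17.9 TPM in NT and at 245, 210.1 and 239 TPM in LEN tumors, a 15.2-fold ratio of means (3.85 ± 0.14, adjusted p = 9.59e-05). Nos2, the inducible nitric oxide synthase, went from 5.51, 4.90 and 6.87 TPM to 32.0, 30.9 and 38.9 TPM (2.37 ± 0.14, adjusted p = 0.000329). The cornified envelope genes Sprr1a and Sprr1b rose by 2.75 ± 0.26 and 2.13 ± 0.15 (adjusted p = 0.00129 and 0.000473) and the 10 listed keratinocyte genes of skin summed to 0.13 to 0.24 TPM in NT and 0.20 to 0.78 TPM in LEN tumors. Others among the 15 largest rises were the membrane gene Tmem108 (2.27 ± 0.13), the cadherin-related Cdhr1 (2.09 ± 0.10), the leukocyte protease Adam8 (2.07 ± 0.11), the steroid dehydrogenase Hsd17b2 (1.96 ± 0.13), the interferon-linked Slfn4 (1.94 ± 0.15) and Ly6a, the Sca-1 antigen, at 87.8 to 91.6 TPM in NT and 318 to 357 TPM in LEN tumors (1.89 ± 0.07). Their adjusted p-values ranged from 0.000133 to 0.000579.

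Whether LEN acted differently on Renca than on the other 11 models was tested as a difference of effects over all 72 tumors of day 8. Some of the other models were grown in other mouse strains or in male mice, so cell line and host cannot be told apart. The effect was more negative in Renca for 748 of 17351 genes (4.31%) and more positive for 249 (1.44%). The first count was 423 to 480 without NT 2, NT 5, LEN 4 or LEN 5, and the second 133 to 154 without NT 3, NT 5, LEN 4 or LEN 5. The excess of more negative genes depended on the scaling, with 763 more negative and 755 more positive under upper-quartile and 949 and 596 under protein-coding scaling. Among MVD score genes the fall was deeper in Renca for Cdh5 (difference -0.88 ± 0.22, adjusted p = 0.00805) and Sparcl1 (-1.08 ± 0.21, adjusted p = 0.00044), against mean effects of -1.10 and -0.57 in the other models. It was not shown to differ for Kdr, Eng and Pcdh12 (-0.56 ± 0.19, -0.19 ± 0.22 and 0.42 ± 0.17, adjusted p = 0.0639, 0.78 and 0.146). The difference of Cdh5 did not pass without NT 5 or LEN 4 (-0.78 in both cases), that of Kdr passed under protein-coding scaling (-0.55, adjusted p = 0.0404), and that of Pcdh12, a weaker fall in Renca, under upper-quartile scaling (0.49, adjusted p = 0.0356) and with a pseudocount of 0.1. By list, the effect was more negative in Renca for 13 of 19 macrophage genes and 9 of 15 basement membrane genes, and more positive for 5 of 16 glycolysis enzymes, 4 of 26 interferon-stimulated genes and 3 of 29 hypoxia genes. The last 3 counts were 10, 7 and 9 under upper-quartile and 9, 7 and 8 under protein-coding scaling. With a tumor left out, the glycolysis count was 0 without NT 3, 1 without LEN 4, 2 without LEN 5 and 3 without NT 5, and the interferon count was 1 or 2 without any tumor other than LEN 2.

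Among protein-coding genes that passed, with a mean of at least 5 TPM in a Renca group, the most negative differences were in Ear2, Prkcb, a protein kinase C of leukocytes, the iron carrier Trf, the apolipoprotein Apoc2 and Cd33, at -2.32 to -1.89 (adjusted p = 4.18e-07 to 0.000604). The effect in Renca was the lowest of the 12 models for each of these 5 genes, a rank that follows in part from how they were picked. The most positive of them were 2610528A11Rik (3.47 ± 0.34), Tmem108 (2.25 ± 0.12), Cdhr1 (2.04 ± 0.09), Sprr1a (1.99 ± 0.63) and Adm (1.94 ± 0.38), with adjusted p = 1.16e-10, 3.15e-20, 7.31e-24, 0.0469 and 0.000424. For Tmem108 the 11 other effects lay between -0.29 and 0.39 and for Cdhr1 between -0.03 and 0.30, while for Sprr1a 1 other model, with an effect of 5.60, exceeded Renca. The difference of Sprr1a did not pass without any 1 of the 6 tumors, with no TPM minimum or with a pseudocount of 0.1, and with that pseudocount neither did that of Ear2 (adjusted p = 0.0534).

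**Figure D4:**
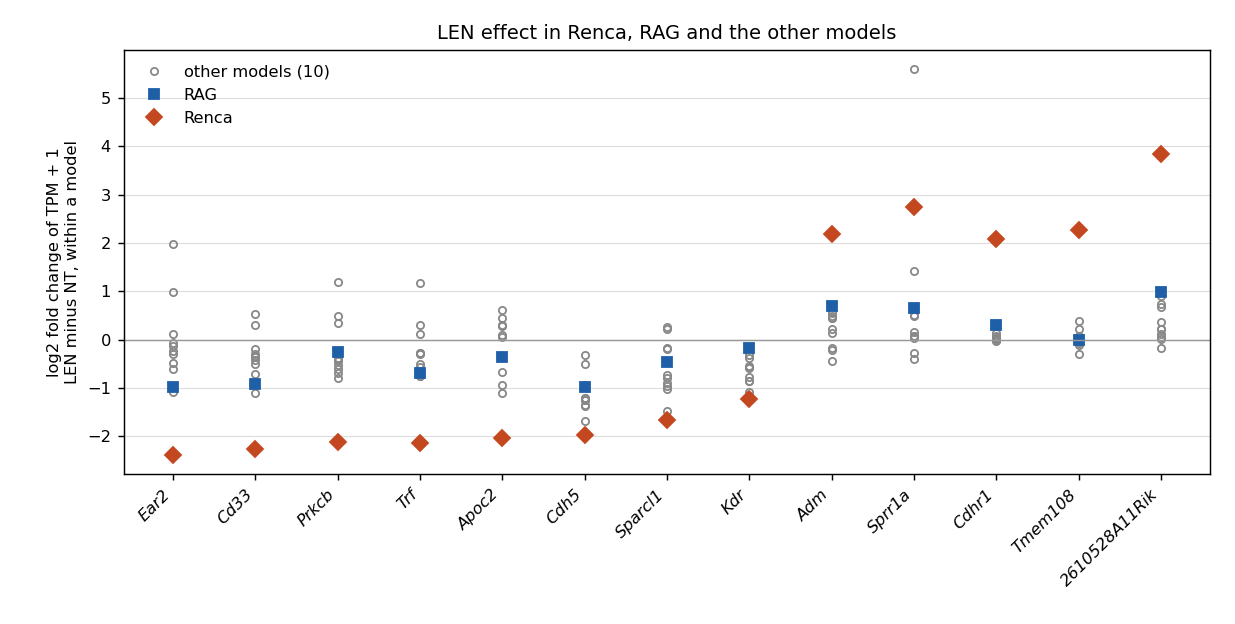
Log2 fold change of TPM + 1, LEN minus NT, of 13 genes within each of the 12 models, with Renca as diamonds, RAG as squares and the other 10 models as open circles; each symbol is the difference of 2 means of 3 tumors. Renca lies lowest for the 8 genes from Ear2 to Kdr and highest for the 5 genes from Adm to 2610528A11Rik except Sprr1a, where 1 model lies higher. The 5 genes from Ear2 to Apoc2 and the 5 from Adm on were picked for this difference, from which their rank follows in part.

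RAG, adapted to growth in mice, is the other kidney model of the series and was grown in the same strain. The effect of LEN was more negative in Renca than in RAG for 160 of 17351 genes (0.922%) and more positive for 105 (0.605%), with 90 and 98 more negative without NT 5 and without LEN 4, and 59 and 61 more positive without NT 3 and without LEN 4. More positive genes outnumbered more negative ones under upper-quartile scaling, 497 against 237, and under protein-coding scaling, 389 against 289. It was more negative for 6 of 15 basement membrane genes, 4 of the 5 VEGF receptors and co-receptors, 4 of 29 cell cycle genes and 3 of 19 macrophage genes. These counts were 2, 2, 0 and 1 without LEN 4 and 4, 1, 1 and 1 without NT 5, and the cell cycle count was also 1 without NT 2 and 2 without LEN 5. Kdr fell further in Renca (difference -1.05 ± 0.25, adjusted p = 0.0152), with an effect of -0.18 in RAG, as did Sparcl1 (-1.20 ± 0.29, adjusted p = 0.0151), while the difference for Cdh5 did not pass (-1.0 ± 0.30, adjusted p = 0.0827). Without NT 5 or LEN 4 the differences of Kdr and Sparcl1 did not pass, and under upper-quartile or protein-coding scaling that of Cdh5 did (adjusted p = 0.0465 and 0.0396). Among protein-coding genes that passed, with a mean of at least 5 TPM in a Renca group, the most negative differences were in Mmp13 (-2.50 ± 0.45), Apln (-2.40 ± 0.28), the phosphodiesterase Pde2a (-2.14 ± 0.51), the histone gene Hist1h3g (-1.99 ± 0.32) and Prkcb (-1.87 ± 0.37), with adjusted p = 0.000491, 7.01e-08, 0.015, 6.09e-05 and 0.00199. Apln, deep among the falls of Renca, had an effect of 0.25 in RAG. The most positive of the genes that passed were 2610528A11Rik (2.86 ± 0.47), the calcium-binding S100g (2.55 ± 0.37), Tmem108 (2.27 ± 0.17), Susd1 (1.96 ± 0.39) and Slfn4 (1.92 ± 0.48), with adjusted p = 9.72e-05, 8.32e-06, 8.95e-15, 0.00162 and 0.0213. The difference of Slfn4 did not pass without NT 2 or LEN 4, and those of 2610528A11Rik and S100g did not with a pseudocount of 0.1 (adjusted p = 0.245 and 0.358).

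The NT tumors were also set against the treatment-naive tumors, a comparison that shares its NT tumors with the LEN comparison and in which growth and the time of collection cannot be told apart. Of 16450 genes 1165 were lower (7.08%) and 129 higher (0.784%) in NT tumors of day 8. Without any 1 of the 6 tumors 393 to 599 were lower, and 61 to 79 were higher without any tumor other than NT 3. Under upper-quartile scaling the counts were 905 and 624 and under protein-coding scaling 943 and 561, and these scalings moved the median of all genes from -0.12 to -0.01, so the fold changes of this comparison are read against -0.12. Slc2a1 was at 11.7, 13.7 and 11.8 TPM at the start and rose by 1.55 to the NT level, beside the further 1.79 under LEN. Of the hypoxia list 13 of 26 members were higher in NT than in treatment-naive tumors and 1 was lower, and of the glycolysis enzymes 11 of 16 were higher and 0 lower, beside 19 of 27 and 15 of 16 higher under LEN. With either of these scalings 17 hypoxia genes and 15 glycolysis enzymes were higher over the week, and 8 hypoxia genes were without NT 5 or treatment-naive 3. Cdkn1a likewise rose by 0.98 over the week (adjusted p = 0.00387) and by 1.09 under LEN.

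Some vessel genes were also lower in NT than in treatment-naive tumors, with a share that differed by list. Markers of tissue around the tumor moved the same way. The summed TPM of the 11 skeletal muscle genes was 248 to 359 in treatment-naive and 15.1 to 136 in NT tumors, with 7 of 11 lower and a median of -2.52, and 1 to 3 lower without any tumor other than NT 5, without which 10 were lower. The 10 adipocyte genes summed to 101 to 110 TPM and 54.6 to 92.8 TPM, with 2 of 5 tested lower and a median of -1.32, while their defining marker Adipoq was at 1.14 TPM or less in each of these tumors. The part of surrounding tissue in the falls of vessel, fibroblast and matrix genes over the week was not tested. The MVD score went from 4.12 ± 0.19 (SD, n = 3) in treatment-naive to 3.41 ± 0.13 in NT and 2.37 ± 0.13 in LEN tumors, with no overlap between neighbouring groups. Genes of endothelial junctions and the endothelial surface fell over the week for 15 of 27 members, with a median of -0.70. Under LEN the median was -0.92 over 23 tested members. Only 5 or 6 of them fell over the week without NT 2, NT 3, treatment-naive 2 or treatment-naive 3. Vascular basement membrane genes fell for 7 of 15, with a median of -0.73 beside -1.14 under LEN, and for 4 without NT 3. In the angiopoietin and Tie system 3 of 5 fell, with a median of -0.80, where the median under LEN was -0.66 over 4 tested members. Over the week 1 fell without NT 2, NT 3, treatment-naive 2 or treatment-naive 3. Of the 6 MVD score genes 4 fell over the week, 2 under either other scaling or without treatment-naive 1, and 1 without NT 2, NT 3, treatment-naive 2 or treatment-naive 3. Also lower were 2 of 5 VEGF receptors and co-receptors, 7 of 18 endothelial transcription factors and 5 of 14 capillary lipid uptake genes. So were 3 of 5 leukocyte adhesion molecules and 4 of 15 pericyte genes, the latter 2 under either other scaling. Of 21 Notch and tip cell genes 4 were lower and 1 higher, where 7.08% of all genes were lower.

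The values of further groups are given side by side for the week and for LEN. Because the NT tumors enter both comparisons with opposite sign, a chance deviation in NT alone moves the values apart, and no difference between the 2 was tested. Interferon-stimulated genes had a median of -0.37 in NT against treatment-naive tumors, with 1 of 26 lower and 0 higher, beside 0.90 under LEN. Ly6c2 was at 4.67 to 12.6 TPM at the start, so that its LEN level of 13.3 to 14.6 TPM lay above that range while its NT level of 2.03 to 2.66 TPM lay below it. Fibroblast and matrix genes fell over the week for 23 of 27 members, with a median of -1.41 (21 members under either other scaling), beside the muscle and adipocyte values above and 4 of 26 under LEN, and MHC class II genes for 8 of 9. Macrophage genes fell over the week for 5 of 18 members with a median of -0.39, beside -1.22 under LEN, and for 1 to 3 members without any tumor other than treatment-naive 2. Of 29 cell cycle genes 1 fell over the week, with a median of -0.02 that turned to 0.10 under upper-quartile and 0.09 under protein-coding scaling, beside -0.45 under LEN. Hbb-bs was at 21.4 to 32.8 TPM in treatment-naive tumors, a range that its NT tumors overlapped and its LEN tumors did not.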

How the data were processed

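RNA from tumor tissue was sequenced after rRNA depletion, and the authors deposited 1 table of TPM for all 107 tumors. According to the study's methods and the submitters' processing notes, the authors trimmed reads with Trimmomatic 0.36, aligned them to mm10 (GRCm38) with STAR 2.5.2b and estimated TPM with RSEM 1.2.31, after leaving out samples that failed quality control. TPM holds no read counts, so depth is unknown and no count model was used. The sequencer used for each tumor is not given in the sources used here, and its part was not tested.

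TPM of 50686 genes were read, of which 50376 had a GENCODE M21 record. Genes whose mean over the tumors compared reached 1 TPM were tested on log2(TPM + 1) with limma 3.58.1 (moderated statistics with a mean-variance trend, two-sided, R 4.3.3) and Benjamini-Hochberg adjustment over all genes tested. The 3 LEN and 3 NT tumors alone entered the first comparison, the 3 NT and 3 treatment-naive tumors the second, and all 72 tumors of day 8 with 24 group means the differences between models. The fits were tested on simulated data with known changes. TPM is a share of the total, so a large change in abundant RNA moves all other genes, for which reason upper-quartile and protein-coding scalings were tried, beside other pseudocounts, TPM minimums, omission of the trend, a replicate term and leaving out each tumor. Estimated TPM of near-identical copies (globins, histones, Ear and MHC genes) can be shared between them.

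Renca as the part described, the gene lists and the tests were chosen with earlier results of these data known, and the tumors by label alone. Genes named are the MVD score genes, the VEGF receptors and ligands and other lenvatinib targets, up to 4 members past the threshold and the first 2 members of each list, the 15 largest falls and 15 largest rises among protein-coding genes that passed, did not overlap and had a mean of at least 5 TPM in the higher group, and the 5 most negative and 5 most positive differences from the other models and from RAG among protein-coding genes that passed and had a mean of at least 5 TPM in a Renca group. Of these, 196 were tested in the LEN comparison. A further 18 (Alas2, Bnip3, Cd274, Cd4, Cd68, Csf3r, Cxcl10, E2f1, Esm1, Fbln2, Irf9, Isg15, Klf4, Pfkm, Psmb8, Spp1, Trim30a and Vwf) were named after their values were seen. Some genes that the rule takes are not reported here, though counts of list members include them. Promoters came from a RefSeq table (GRCm38.p6), and figures were drawn with matplotlib 3.10.9 in Python 3.11.15.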

Additional observations from a re-analysis of the deposited data

Results flagged for a closer look

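The effect of LEN on the following genes differed between Renca and other models by the limma test of the difference itself, with p-values adjusted over 17351 genes.

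Against the mean of the other 11 models, the effect was more negative in Renca for Ear2 (-2.32 ± 0.46, SE), Prkcb (-1.94 ± 0.28), Trf (-1.91 ± 0.31), Apoc2 (-1.89 ± 0.35) and Cd33 (-1.89 ± 0.25), where the mean effect of the others lay between -0.36 and -0.07. It was more positive for 2610528A11Rik (3.47 ± 0.34), Tmem108 (2.25 ± 0.12), Cdhr1 (2.04 ± 0.09), Sprr1a (1.99 ± 0.63) and Adm (1.94 ± 0.38), where the mean effect of the others lay between 0.01 and 0.76. Of the MVD score genes, Cdh5 (-0.88 ± 0.22) and Sparcl1 (-1.08 ± 0.21) fell further in Renca. The difference of Sprr1a did not pass without any 1 of the 6 tumors, nor that of Cdh5 without NT 5 or LEN 4.

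Against RAG, the effect was more negative in Renca for Mmp13 (-2.50 ± 0.45), Apln (-2.40 ± 0.28), Pde2a (-2.14 ± 0.51), Hist1h3g (-1.99 ± 0.32), Prkcb (-1.87 ± 0.37), Sparcl1 (-1.20 ± 0.29) and Kdr (-1.05 ± 0.25). For Mmp13 the fall in Renca stood beside an effect of 1.15 in RAG that did not itself pass (adjusted p = 0.0602). It was more positive in Renca for 2610528A11Rik (2.86 ± 0.47), S100g (2.55 ± 0.37), Tmem108 (2.27 ± 0.17), Susd1 (1.96 ± 0.39) and Slfn4 (1.92 ± 0.48). The differences of S100g and Susd1 came with effects of -1.55 and -1.35 in RAG, and in Renca alone Susd1 did not pass the test (0.60, adjusted p = 0.0662 in limma). The differences of Kdr and Sparcl1 did not pass without NT 5 or LEN 4, nor that of Slfn4 without NT 2 or LEN 4.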

How the results depend on the processing

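Under another pseudocount, TPM minimum or trend setting, and in the fit over all 72 tumors, the counts of genes that fell and rose under LEN were between 837 and 1155 and between 583 and 794, while upper-quartile and protein-coding scaling raised the count of rises to 1586 and 1378. With any 1 tumor left out, 481 to 1574 genes fell and 368 to 813 rose. Without NT 2 750 fell, without NT 5 481 fell and 444 rose, without LEN 2 609 and 438, without LEN 4 626 and 386, and without LEN 5 546 and 368. NT and LEN tumors share only the numbers 2 and 5, with correlations of their deviations of 0.01 and 0.06, and they are different mice; with the replicate block, which leaves 1 residual degree of freedom and so says little about stability, 0 genes fell and 0 rose, and 4006 had an unadjusted p under 0.05, of which 2895 were lower.

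Against the other 11 models, 423 to 817 genes were more negative and 133 to 278 more positive with a Renca tumor left out, fewest without NT 5 and without NT 3, and more positive genes numbered 674 with no TPM minimum, 146 at 5 TPM, 755 under upper-quartile and 596 under protein-coding scaling. Against RAG, 90 to 159 were more negative and 59 to 155 more positive with a Renca tumor left out, 289 were more negative under protein-coding scaling, and more positive genes numbered 59 with a pseudocount of 0.1, 392 with no TPM minimum, 50 at 5 TPM, 497 under upper-quartile and 389 under protein-coding scaling. For NT against treatment-naive tumors, 624 genes were lower and 81 higher with no TPM minimum, 8 lower and 1 higher with the replicate block, 624 higher under upper-quartile and 561 under protein-coding scaling, and 393 to 599 lower and 61 to 99 higher with 1 tumor left out, fewest without treatment-naive 3 in both directions. The cause of these changes was not tested.

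At a mean of at least 5 TPM fewer list members entered, and the members that fell numbered 7 for endothelial junctions and surface, 2 for endothelial transcription factors, 2 for pericytes, 6 for Notch and tip cell genes, 2 for VEGF receptors, 3 for MVD score genes and 1 for the angiopoietin and Tie system. Under upper-quartile scaling 4 cell cycle genes, 5 epithelial and mesenchymal markers, 4 matrix metalloproteinases and Timps, 2 macrophage genes, 2 monocyte genes, 3 endothelial junction and surface genes and 1 basement membrane gene rose. In the fit over all 72 tumors 1 neutrophil gene, 1 gene of the Tcell_inf_GEP list and 0 macrophage genes rose, and 3 MVD score genes fell.

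Of 1454 values of single genes under the settings that neither left out a tumor nor used the block, 1323 kept their direction and side of the threshold, as did 1068 of 1276 with a tumor left out. Signs turned only for genes that had not passed the test: under upper-quartile scaling Nrp2 (0.0208), Mcm2 (0.0568) and Pfkm (0.0628), under protein-coding scaling Mcm2 (0.0288) and Pfkm (0.0354), and with the block Fgfr1 (-0.0165), Pax8 (-0.088), Ndufa1 (-0.0196), Rn7s1 (0.0704), Rn7s2 (0.0719), Alas2 (0.0203) and Cd274 (-0.0624). Of 347 values of differences between models, 323 kept their direction and side of the threshold and 0 changed sign. With 1 tumor left out, Mcm2 ranged from -0.172 to 0.137, Mcm3 from -0.0123 to 0.14, Pax8 from -0.0922 to 0.0751, Alas2 from -0.361 to 0.053, Cd274 from -0.0916 to 0.121, Csf3r from -0.0236 to 0.143 and Pfkm from -0.127 to 0.0948.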
